A study of Mus musculus with 19 samples.

Results

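Expression of 10 mammary epithelial lineage transcription factors, Gata3, Elf5, Foxa1, Ehf, Elf3, Spdef, Sox9, Sox10, Tfap2c and Grhl2, was examined in mouse mammary glands and mammary tumors. The members were the rows whose Ensembl identifiers carry these symbols in GENCODE vM21, which gave 10 of the 46078 genes in the table, each with a single row. RNA-seq had been done on 19 bulk samples, and values are given as the authors' normalized counts, that is, reads per gene after scaling between libraries. The comparisons ask how these genes differed between glands of tumor-bearing mice and glands of wild-type mice, between tumors and glands, and between mice with and without mutant p53 in fibroblasts.

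The groups were 3 MG-WT glands (Wild Type), 4 MG-N and 4 MG-NP glands, and 4 T-N and 4 T-NP tumors. All T-N tumors came from MMTV-neu;Fsp-Cre mice, and all MG-NP and T-NP samples came from MMTV-neu;p53wm-R172H/+;Fsp-Cre mice. Of the MG-N glands, replicate 1 was MMTV-neu;Fsp-Cre and replicates 2, 3 and 4 were MMTV-neu;p53wm-R172H/+ without Cre, so the MG-N mice mostly differed in genotype from the T-N mice. The MMTV promoter drives the neu (Erbb2) oncogene in mammary epithelium, so that every sample but MG-WT carries the oncogene. Fsp-Cre is active in fibroblasts, where it switches the p53wm-R172H allele from wild-type to mutant p53, while epithelial cells are meant to keep wild-type p53. The methods describe a mixed FVB/C57/BALB/c background, glands of the tumor-bearing mice taken free of malignant lesions, and wild-type mice of matched age. T-NP replicates 1 and 2 carry library names that share an animal number, so whether they come from separate mice is open, and p-values measure only the spread between these samples.

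The mammary gland holds an inner luminal and an outer basal layer of epithelium. Hormone-sensing luminal cells carry the estrogen receptor and depend on Foxa1, a forkhead protein that opens chromatin for the receptor, and on Gata3, a zinc-finger factor that maintains luminal cells. Luminal progenitors and the milk-producing alveolar cells that they form depend on Elf5, an ETS factor. Ehf, Elf3 and Spdef are further ETS factors of epithelia. Sox9 and Sox10 are SOX factors of progenitor cells, Sox9 being also a regulator of cartilage and Sox10 of glial cells and melanocytes. Tfap2c encodes the AP-2 gamma factor of luminal cells, and Grhl2 is a grainyhead factor that acts on genes of epithelial junctions.

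Recovered reads numbered 20899152 to 27262440 in the 16 libraries of tumor-bearing mice and 54677315 to 62645459 in MG-WT. The MG-WT libraries also stood apart in composition. The summed normalized counts of 9 white adipocyte markers were 2259 to 3392 in MG-WT, 338791 to 476296 in MG-N and 168057 to 419070 in MG-NP, and those of 12 pan-epithelial genes were 75720.1 to 89108, 12369 to 27074 and 8196 to 24577. Tumors held 107801 to 199631 (T-N) and 115260 to 151501 (T-NP) of the pan-epithelial genes, and Erbb2 stood at 73426 to 155042 and 84389.7 to 117600 there against 1845 to 14718 and 3966 to 10787 in MG-N and MG-NP. The 6 immediate-early and stress genes summed to 293396 to 361362 in MG-WT and to at most 8679 in any other group. The 10 skeletal muscle markers summed to 10415 to 2491850 in MG-NP and 321 to 15675 in MG-N, against at most 117 in MG-WT. In bulk tissue, fewer epithelial cells and less RNA per epithelial cell cannot be told apart, and neither can genotype, handling and tissue make-up in a comparison with MG-WT.

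Only 5 of the 10 genes, Gata3, Elf5, Foxa1, Elf3 and Spdef, have a promoter window of 300 bases in the RefSeq-based table (build GRCm38.p6), and 2 are printed because these genes moved furthest in opposite directions in tumors. Each is read 5′ to 3′ on the minus strand, which both genes use. Each stops short of an exon annotated in GENCODE, which begins 10 (Foxa1) and 4 (Spdef) bases before the RefSeq start. Capitals mark the letters of a searched motif.
Foxa1, chr12:57546122-57546361: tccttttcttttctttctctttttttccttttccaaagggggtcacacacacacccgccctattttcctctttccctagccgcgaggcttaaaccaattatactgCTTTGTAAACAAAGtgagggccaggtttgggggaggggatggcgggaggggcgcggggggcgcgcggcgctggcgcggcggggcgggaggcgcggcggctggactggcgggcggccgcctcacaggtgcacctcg
Spdef, chr17:27728956-27729201: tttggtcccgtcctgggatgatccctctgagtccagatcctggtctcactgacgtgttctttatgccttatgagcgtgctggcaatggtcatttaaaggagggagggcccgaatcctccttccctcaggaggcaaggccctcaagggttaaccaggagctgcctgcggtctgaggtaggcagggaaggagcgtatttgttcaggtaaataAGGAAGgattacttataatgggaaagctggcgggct

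The Foxa1 stretch of 240 bases lies upstream of the RefSeq start and inside an intron of the longer gene that GENCODE annotates, and the Spdef stretch of 246 bases lies outside the annotated gene. The capitals in the Foxa1 sequence are a forkhead motif, GTAAACA, beginning 141 bases before the start, overlapped on both sides by the SOX motif ACAAAG, once on each strand. A forkhead match was found in 3.65% of the 32851 windows in the table and the SOX motif in 18.7%, both strands being searched. In the Spdef sequence the capitals are 1 copy of the ETS motif AGGAAG, 40 bases before the start, which 35.4% of all windows hold on either strand. The GATA motif AGATAA (11.2% of all windows) was found in none of the 6 windows of these genes, and the AP-2 motif GCCNNNGGC (16.6%) only in that of Gata3, with 3 matches. CpG dinucleotides numbered 26 in the Foxa1 window, 22 in Gata3 and 7 in Spdef, against a median of 7 over all windows. These letters describe the windows and do not show which proteins bind there.

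Every one of the 10 genes was lower in glands of tumor-bearing mice than in MG-WT glands. A gene was called when its adjusted p from limma was under 0.05 and it changed by at least 2-fold, fitted on log2(normalized count + 1). All 10 were called lower in MG-N, where 17.9% of the genes tested were called lower, and all 10 in MG-NP, where 16.2% were. Their median log2 fold change was -2.93 in MG-N and -2.75 in MG-NP, against 0.02 and 0.02 over all genes tested. The MG-WT glands are shared by these comparisons. Beside the members, all 12 pan-epithelial genes were called lower and all 9 white adipocyte markers higher, in MG-N as well as MG-NP. Counting both directions, 7037 of 19017 genes tested were called in MG-N and 6217 of 19065 in MG-NP. No value of any member in MG-N or MG-NP reached the lowest MG-WT value, a separation downward that 29.8% and 27.9% of the genes tested also showed.

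Foxa1 fell the furthest. The MG-WT glands had 3646, 5038 and 3606 normalized counts, the MG-N glands 91.7, 202, 314 and 196 and the MG-NP glands 256, 394, 145 and 142. These are log2 fold changes of -4.45 ± 0.37 (SE) in MG-N and -4.24 ± 0.38 in MG-NP, or 21.9-fold and 18.9-fold lower (adjusted p = 3.5e-05 and 0.00028). Sox9 was at 5719, 6449 and 6399 in MG-WT, at 374, 215, 441 and 232 in MG-N and at 536, 621, 545 and 248 in MG-NP. The highest of the 8 glands of tumor-bearing mice thus lay far below the lowest MG-WT gland. Its log2 fold changes were -4.35 ± 0.25 and -3.74 ± 0.31.

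Gata3 and Elf3 followed. Gata3 stood at 8398, 9289.6 and 6956 in MG-WT and at 712, 515, 880.0 and 441 in MG-N, and the MG-NP glands had 990.0, 906, 1105 and 360.3, with log2 fold changes of -3.73 ± 0.24 and -3.40 ± 0.38. Elf3 counts were 1704, 2712 and 2207 in MG-WT, 224, 154, 325 and 158 in MG-N, and the MG-NP glands had 258, 305, 224 and 112, with log2 fold changes of -3.40 ± 0.28 and -3.35 ± 0.35. The other 6 genes fell less in MG-N, between -1.77 for Ehf and -3.24 for Sox10.

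The smallest changes were those of Ehf and Elf5, the factors nearest to the alveolar lineage. Ehf ranged from 8561 to 11729.5 in MG-WT, from 1563 to 8168 in MG-N and from 1282 to 6958 in MG-NP, and its log2 fold changes were -1.77 ± 0.55 (adjusted p = 0.024) and -1.66 ± 0.53 (adjusted p = 0.037). Elf5 ranged from 4298 to 6264, 684 to 2039 and 648 to 2778 in the same groups, with -2.08 ± 0.44 and -1.62 ± 0.50 (adjusted p = 0.004 and 0.032). The MG-NP calls of both genes were lost when any single MG-WT gland or MG-NP replicate 2 was left out, with adjusted p up to 0.11, and the MG-N call of Ehf was lost without MG-WT replicate 1 or 3 (adjusted p up to 0.074). In the edgeR quasi-likelihood fit Ehf missed the threshold in both (adjusted p = 0.055 and 0.051).

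**Figure D1:**
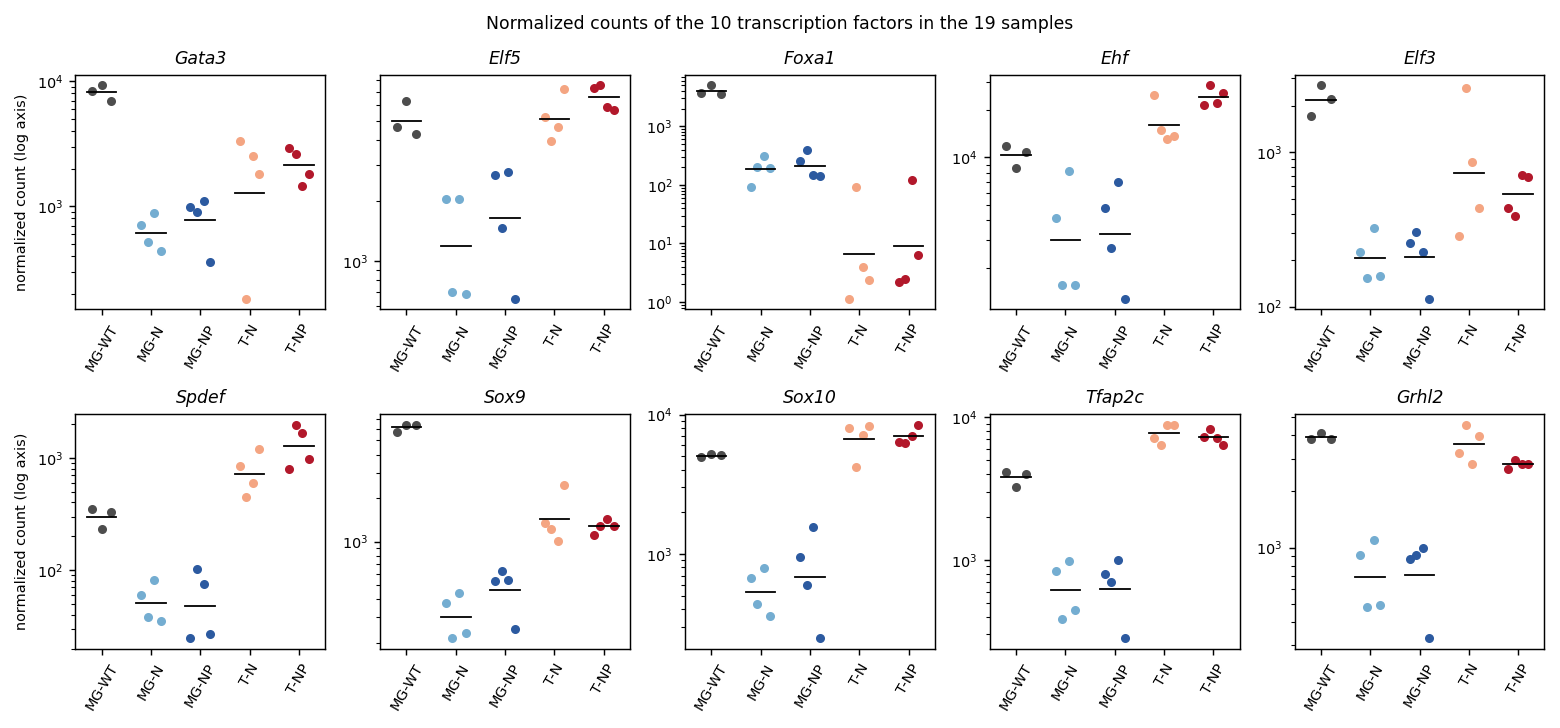
Normalized counts of the 10 genes (log axes, each panel with its own range) by group, with 3 MG-WT glands, 8 glands of tumor-bearing mice (MG-N, MG-NP) and 8 tumors (T-N, T-NP). Points are samples and black lines are means on the log2 scale. All MG-N and MG-NP points lie below the MG-WT points in every panel, and in T-N and T-NP the Foxa1 points lie furthest below MG-WT, at 1.14 to 92.7 and 2.24 to 121.

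Tumors had more of most of these transcripts than glands of tumor-bearing mice, and Foxa1 was the exception. In T-N against MG-N, 8 genes were called higher, 1 lower (Foxa1), and Gata3 was not called, with 12.8% of genes tested called higher and 22.3% lower. In T-NP against MG-NP, 9 were called higher and 1 lower (Foxa1), against 14.7% and 24% of genes tested. The median log2 fold change of the members was 2.29 and 1.99, against -0.05 and -0.07 over all genes. The tumors lay wholly above the glands for 7 genes in the first comparison and 9 in the second, where 22.7% and 25.2% of genes tested did the same, and wholly below them for Foxa1 in the second (27.4% of genes tested). Of the 10 members, 9 had at least 10 normalized counts in all 19 samples. Foxa1 was under that level in 6 tumors and entered these tests through its level in the glands. In the same comparisons all 9 white adipocyte markers were called lower in both tumor groups, and 11 (T-N) and 12 (T-NP) of the 12 pan-epithelial genes were called higher.

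Spdef rose the most. Its counts were 59.9, 37.9, 81.7 and 35 in MG-N and 851, 448, 599.9 and 1188 in T-N, and 24.8, 103, 74.7 and 27.1 in MG-NP and 797, 1979, 1665 and 975 in T-NP. The lowest tumor was above the highest gland in both comparisons, and the log2 fold changes were 3.81 ± 0.38 and 4.70 ± 0.51, or 14-fold and 25.9-fold (adjusted p = 0.00016 and 0.00014).

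Tfap2c and Sox10 came next. Tfap2c rose from 386 to 980.4 in MG-N to 7195, 6426, 8908 and 8876 in T-N, and from 283 to 994 in MG-NP to 7313, 8267, 7206 and 6398 in T-NP (3.66 ± 0.31 and 3.53 ± 0.35 on the log2 scale). Sox10 rose from 356 to 794 to 7992, 4181, 7073 and 8221 in T-N and from 249 to 1566 to 6393, 6219, 6962 and 8479 in T-NP (3.62 ± 0.31 and 3.34 ± 0.48). The 11 Schwann cell and melanocyte markers, the other cells known for Sox10, summed to 2436 to 4777 in T-N and 1792 to 3505 in T-NP, and to 2526 to 3734 in MG-N and 2202 to 4093 in MG-NP. The defining melanocyte and neural crest genes Dct and Foxd3 had at most 3 reads in any tumor, while 5 of the markers tested were called lower and 1 higher in either tumor group.

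Ehf, Elf5 and Grhl2 were called higher in both tumor groups. Ehf had 24610, 14783, 12969 and 13652 normalized counts in T-N and 21368, 28501, 22017 and 25444 in T-NP, with log2 fold changes of 2.40 ± 0.52 and 2.89 ± 0.46 over the glands. Elf5 had 5198, 3990.1, 4650.4 and 7211 in T-N and 7310.0, 7530.4, 5892 and 5663 in T-NP (2.11 ± 0.41 and 2.00 ± 0.43). Grhl2 had 3219, 4569, 2799 and 3961 and 2634, 2933, 2812 and 2802 (2.35 ± 0.30 and 1.97 ± 0.33). The gland values of Ehf and Elf5 were spread more widely than their tumor values on the log2 scale, and no tumor of either group was as low as the highest gland of its comparison.

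Sox9, Elf3 and Gata3 rose by less. Sox9 reached 1341, 1227, 1017 and 2454 in T-N and 1111, 1288, 1434 and 1285 in T-NP, with log2 fold changes of 2.24 ± 0.33 and 1.47 ± 0.28. Elf3 was at 286, 2611, 868 and 434 in T-N, where replicate 2 stood well above the rest, and at 434, 388, 714 and 687 in T-NP. Its log2 fold changes were 1.82 ± 0.63 (adjusted p = 0.037) and 1.34 ± 0.35 (adjusted p = 0.01), and the first lost its call in 4 of the 8 fits that left out 1 sample, MG-N replicates 1, 2 and 4 and T-N replicate 3 (adjusted p up to 0.088). Gata3 was at 3312, 182, 2509.5 and 1803 in T-N and 2943, 2618, 1466 and 1827 in T-NP. T-N replicate 2 was below every gland value of its comparison, and the difference there was not called (1.07 ± 0.82, adjusted p = 0.3), while without that tumor it was called (2.00, adjusted p = 0.0015), as it was with all tumors in DESeq2 (1.62, adjusted p = 0.029). In T-NP it was called higher (1.46 ± 0.38, adjusted p = 0.01), and missed the threshold when all 5 groups shared 1 fit (adjusted p = 0.059). The 8 T cell and innate lymphoid markers, which mark other cells with Gata3, summed to 105 to 365 in T-N and 109.9 to 337 in T-NP, below 1638 to 5606 in MG-N and 545 to 6954 in MG-NP.

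Foxa1 went the other way. Normalized counts were 1.14, 92.7, 4.04 and 2.33 in T-N, from 1, 88, 4 and 2 reads, and 2.24, 2.44, 121 and 6.24 in T-NP, from 2, 2, 93 and 5 reads. In 6 tumors the gene thus had 5 reads or fewer, and T-N replicate 2 and T-NP replicate 3 had most of the reads of their groups. The log2 fold change against the glands was -4.60 ± 1.09 in T-N (adjusted p = 0.0077) and -4.43 ± 1.08 in T-NP (adjusted p = 0.0082). With 0.5 or 5 added before taking logs in place of 1 it was -4.79 and -3.74 in T-N and -4.57 and -3.72 in T-NP. Over all alternatives, the pan-epithelial reference included, it ran from -7.28 to -3.00 in T-N and from -7.13 to -2.82 in T-NP. In the edgeR fit to reads neither was called (adjusted p = 0.061 and 0.066), and in DESeq2 both were (adjusted p = 0.015 and 0.019). T-N replicate 2 lay just above the lowest MG-N gland (91.7), so these groups overlapped, and all T-NP tumors lay below all MG-NP glands.

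**Figure D2:**
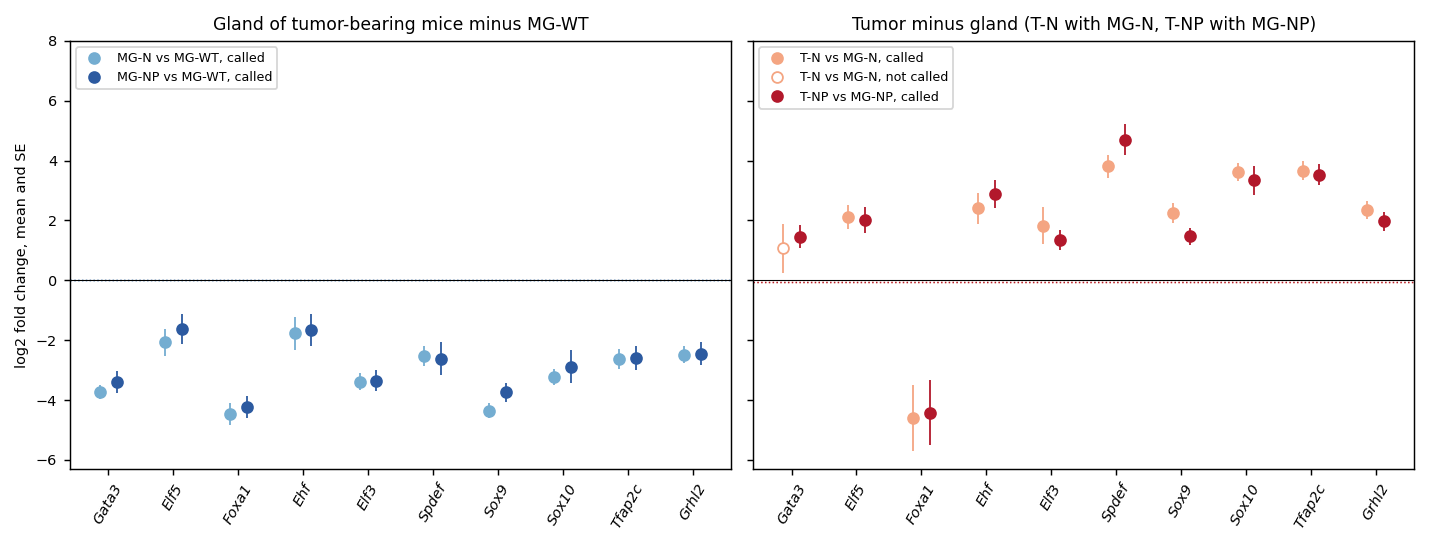
Log2 fold change (mean and SE from limma) of each gene, with glands of tumor-bearing mice against MG-WT on the left and tumors against those glands on the right. Filled points were called, open points were not, and dotted lines are the medians over all genes tested. All points on the left lie below 0, and on the right Foxa1 is the one gene below 0, at -4.60 and -4.43.

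Set against MG-WT, members were called in both directions in tumors, in shares near those of all genes. In T-N, 2 were called higher (Spdef and Tfap2c) and 3 lower (Gata3, Foxa1 and Sox9), where 17.4% of genes tested were called higher and 25% lower. In T-NP, 2 were called higher (Ehf and Spdef) and 4 lower (Gata3, Foxa1, Elf3 and Sox9), against 19.8% and 28%. The median over the members was -0.05 and -0.05, against -0.09 and -0.08 over all genes. In T-N, 3 genes lay wholly above MG-WT and 3 wholly below, against 28.3% and 32.4% of genes tested, and in T-NP 4 lay above and 5 below, against 32.8% and 37.2%. These comparisons reuse the samples of those above, so they are other views of the same values.

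Foxa1 was -9.05 ± 1.19 in T-N and -8.67 ± 1.14 in T-NP on the log2 scale (adjusted p = 0.00058 and 0.00019), and was called under every alternative, with values from -10.26 to -7.29 and from -9.87 to -6.95. It entered these tests through its level in the MG-WT glands, as 6 tumors had 5 reads or fewer. The size of its change therefore depended on the value added before taking logs. With 0.5 or 5 in place of 1 it was -9.25 and -8.16 in T-N and -8.81 and -7.93 in T-NP. Sox9 was -2.12 ± 0.28 in T-N and -2.28 ± 0.11 in T-NP (adjusted p = 0.00064 and 2.0e-06), the highest tumor standing at 2454 counts. Gata3 was -2.66 ± 0.91 in T-N (adjusted p = 0.037) and -1.94 ± 0.24 in T-NP (adjusted p = 0.00014). All tumors lay below all MG-WT glands for these 3 genes. The T-N call of Gata3 was lost on leaving out any 1 of the 3 MG-WT glands or T-N replicate 4, with adjusted p up to 0.1.

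Elf3 was -2.01 ± 0.26 in T-NP (adjusted p = 0.00016). In T-N the value was -1.57 ± 0.68 and was not called (adjusted p = 0.08), and without T-N replicate 2, the tumor with 2611 counts, it was -2.18 and called (adjusted p = 0.0041).

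Spdef was 1.27 ± 0.34 in T-N (adjusted p = 0.014) and 2.08 ± 0.32 in T-NP (adjusted p = 0.00049). The MG-WT glands had 350.1, 232 and 326 counts of it, so all 8 tumors were above all 3 glands. Tfap2c was 1.04 ± 0.17 in T-N, just past the 2-fold limit, and 0.94 ± 0.13 in T-NP, just short of it (adjusted p = 0.0018 and 0.00027). MG-WT glands had 4145, 3250.3 and 4031 counts of Tfap2c, below all tumors of both groups. Leaving out T-N replicate 3 or 4 or MG-WT replicate 2 took the T-N value of Tfap2c under 2-fold, and without MG-WT replicate 2 Spdef was not called in T-N either (adjusted p = 0.061).

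Ehf was 1.23 ± 0.16 in T-NP (adjusted p = 0.00018), a call lost when all 5 groups shared 1 fit (adjusted p = 0.055) and on the pan-epithelial reference (0.82 ± 0.15), and 0.63 ± 0.25 in T-N, which was not called (adjusted p = 0.065). Elf5, Sox10 and Grhl2 were called in neither tumor group. Elf5 was 0.04 ± 0.23 in T-N and 0.39 ± 0.17 in T-NP, Sox10 was 0.39 ± 0.24 and 0.45 ± 0.13, and Grhl2 was -0.13 ± 0.19 and -0.49 ± 0.09. For Sox10 and Grhl2 the T-NP values were small but past the adjusted p threshold (0.011 and 0.0014), so the fold limit alone kept them from a call.

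The level of each gene was next set against the epithelial genes of the same library, by subtracting the mean log2 value of the 12 pan-epithelial genes (Epcam, Cdh1, Cldn3, Cldn4, Cldn7, Krt7, Krt8, Krt18, Esrp1, Rab25, Prss8 and Spint1) from every gene. This scale moves every gene of a comparison by the same amount. The median log2 fold change over all genes tested became 2.39 in MG-N and 2.31 in MG-NP against MG-WT, and -2.72 and -2.77 in the tumors against the glands.

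On it, 4 genes were still lower in MG-N than in MG-WT, where 1% of genes tested were, namely Foxa1 (-2.08 ± 0.43), Sox9 (-1.99 ± 0.42), Gata3 (-1.36 ± 0.41) and Elf3 (-1.03 ± 0.43). In MG-NP, 3 were, Foxa1 (-1.94 ± 0.54), Sox9 (-1.45 ± 0.48) and Gata3 (-1.10 ± 0.48), where 0.724% of genes tested were. The other members were not called relative to the pan-epithelial genes, and the values of Elf5 (0.29 ± 0.41 and 0.68 ± 0.50) and Ehf (0.60 ± 0.41 and 0.64 ± 0.51) turned positive. Thus for 6 of the 10 genes in MG-N, and 7 in MG-NP, no 2-fold difference from the epithelial genes was called.

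In tumors against glands, Spdef was the 1 member called higher than the epithelial genes in T-N (1.14 ± 0.49, where 0.529% of genes tested were) and in T-NP (1.99 ± 0.51, 0.749%). Foxa1 was called lower in both, at -7.28 ± 0.85 and -7.13 ± 0.87, as were 91.6% and 91.3% of genes tested. In T-NP, Gata3 (-1.24 ± 0.42), Elf3 (-1.36 ± 0.46) and Sox9 (-1.24 ± 0.41) were also called lower, the opposite of their direction on normalized counts. Against MG-WT the medians over all genes on this scale were nearer to 0 (-0.40 and -0.49), and the same 4 genes, Gata3, Foxa1, Elf3 and Sox9, were called lower in T-N (background 29.6%) and in T-NP (background 36%). Spdef was called higher in T-NP (1.67 ± 0.30, background 12.8%) and not in T-N (0.97 ± 0.45, adjusted p = 0.11), where 11.6% of genes were and no member was.

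**Figure D3:**
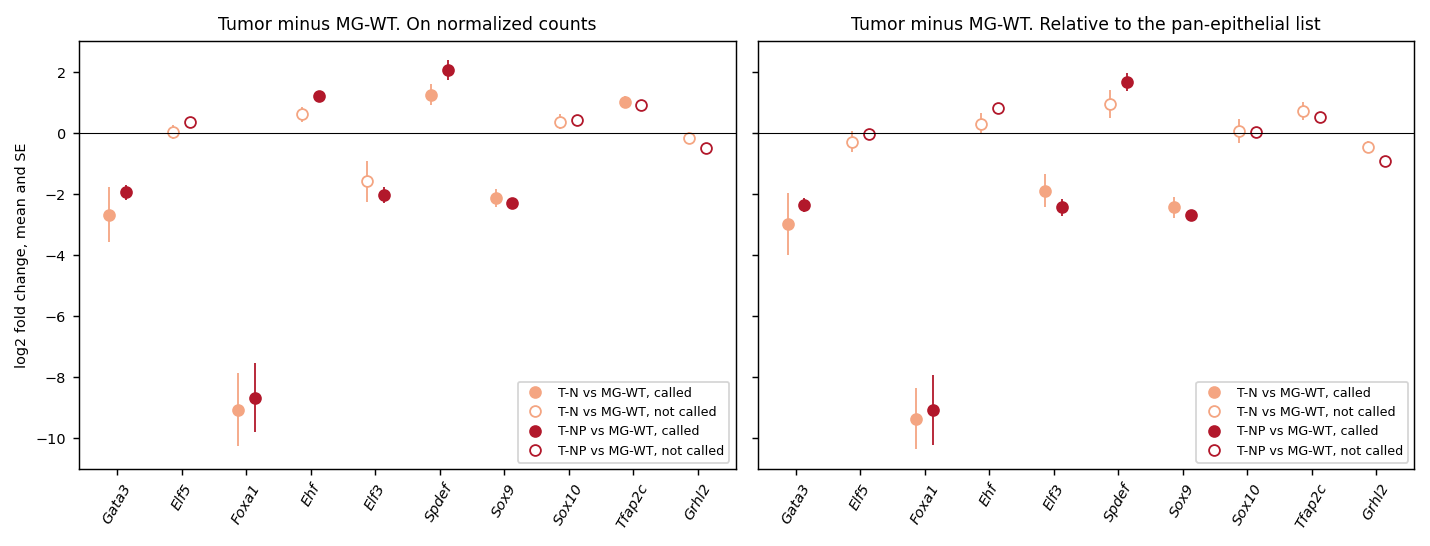
Log2 fold change (mean and SE from limma) of each gene in T-N and T-NP tumors against MG-WT glands, on normalized counts (left) and relative to the mean of 12 pan-epithelial genes (right). Filled points were called and open points were not. Foxa1, Gata3, Elf3 and Sox9 lie below 0 and Spdef above 0 on both scales.

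No difference of these genes with mutant p53 in fibroblasts was detected. In genotype, the MG-NP and MG-N glands differ mostly by the Cre, and the T-NP and T-N tumors by the p53wm-R172H allele. The gland groups also differ in tissue, with skeletal muscle markers summing to 10415 to 2491850 in MG-NP and 321 to 15675 in MG-N. Genotype and tissue make-up cannot be told apart there. Normalized counts do not show whether the mutation was made. For that the paper reports R172H reads in RNA-seq of the MG-NP glands and stabilized p53 in fibroblasts of NP tumors. Its supplement reports that the share of R172H reads in MG-NP glands differed from that in MG-N, T-N and also T-NP. No member was called in MG-NP against MG-N, by limma, by edgeR or by DESeq2, and none had an unadjusted p under 0.05. Of all genes tested there, 0% were called by limma, while 1950 of 18563 had an unadjusted p under 0.05, edgeR called 0 and DESeq2 called 519. The member with the largest difference was Sox9, at 0.61 ± 0.35 (adjusted p = 0.6), and the others lay between -0.08 and 0.46 with SEs of 0.37 to 0.67.

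In T-NP against T-N, 9 members were tested, Foxa1 being below the filter, and none was called by limma, edgeR or DESeq2. Limma called 0.0421% of the genes tested, edgeR called 0 genes with 1210 at an unadjusted limma p under 0.05, and DESeq2 called 85. Ehf alone had an unadjusted p under 0.05 (0.027), with 0.60 ± 0.23 and an adjusted p of 0.68. Spdef had the largest difference, 0.81 ± 0.37 (adjusted p = 0.69), and its tumor values overlapped. The SEs were 0.15 to 0.37 for Elf5, Ehf, Spdef, Sox9, Sox10, Tfap2c and Grhl2, and 0.61 and 0.81 for Elf3 and Gata3, whose values in T-N replicate 2 stood far from the rest.

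Whether the tumor-gland difference itself differed between N and NP was tested as an interaction. No member was called by limma, edgeR or DESeq2, and none had an unadjusted p under 0.05. The largest estimate was that of Spdef, 0.89 ± 0.67 (adjusted p = 0.8). The SEs ran from 0.45 for Sox9 to 1.65 for Foxa1, so that a 2-fold difference, 1 on the log2 scale, was smaller than 1 SE for Foxa1 and about 1 SE for Gata3. Over all genes tested limma called 0% and edgeR 0 genes, with 1536 of 19367 at an unadjusted p under 0.05, and DESeq2 called 327.

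T-N replicate 2 stood at an end of its group for several members. It had the lowest Gata3 of any sample (182 against 1803 to 3312 in the other T-N tumors), the highest Elf3 and Grhl2 of the tumors, and the lowest Spdef, Sox10 and Elf5. Its milk genes were also low, with Csn2 at 8915, 16.9, 25269.7 and 181 in T-N replicates 1 to 4 and at 18809, 5515, 1244 and 2229.9 in T-NP, and Wap at 604, 0, 314 and 2.33 and 793, 288, 66.2 and 219.7. T-N replicate 4 was low in both milk genes too and had the highest Sox9 and Spdef of the T-N tumors. Elf5, which is known to act on Csn2 and Wap, was lowest in T-N replicate 2 and highest in replicate 4 among the T-N tumors. In T-NP, replicates 1 and 2 had the highest Elf5, Csn2 and Wap. No relation between them was tested.

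Foxa1 was near 0 in 6 tumors and above 90 counts in T-N replicate 2 and T-NP replicate 3. The gene with the profile most like it over the 19 samples, by root-mean-square difference of centered log2 values among 20391 other genes, was Ttc6 (0.66), which is its neighbor on chromosome 12, 17.2 kb from it and on the other strand. Ttc6 had 1.14, 69.5, 4.04 and 1.17 counts in T-N and 2.24, 1.22, 122 and 3.75 in T-NP. It was high in the same 2 tumors as Foxa1 and had under 5 counts in the other 6. Its MG-WT values were 1273, 2020.3 and 1240.1, and it was called lower in every one of the 6 comparisons with MG-WT or of tumor with gland, at -5.05 ± 1.07 in T-N against MG-N and -4.89 ± 1.19 in T-NP against MG-NP. Ttc6 was picked for its likeness to Foxa1 over these same samples, so sharing its calls follows from the choice and is no separate evidence. Like Foxa1, it entered the tests with tumors through its level in the glands. The next genes, Mtmr7 (1.25) and Slc35f3 (1.35), were less alike.

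**Figure D4:**
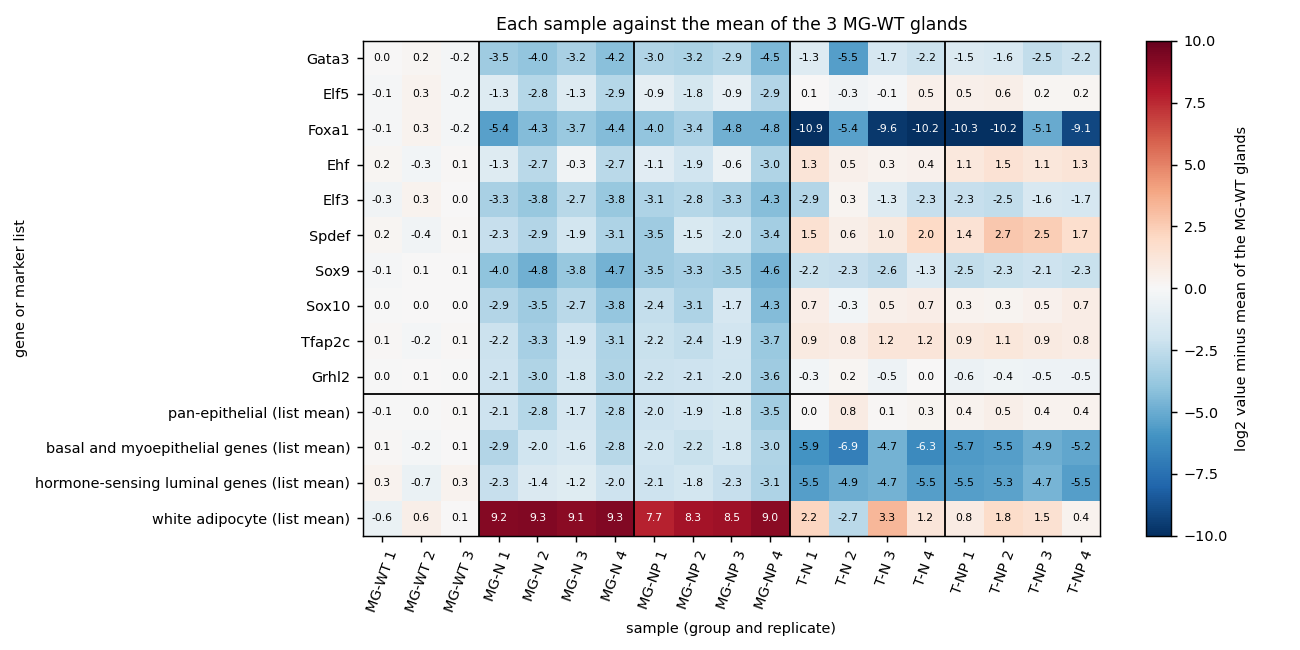
Log2 value of each of the 10 genes, and mean log2 value of 4 marker lists, in each of the 19 samples, minus the mean of the 3 MG-WT glands (color from -10 to 10, value in each cell). Foxa1 in the tumors ranges from -10.9 to -5.05, the 2 least negative being T-N replicate 2 and T-NP replicate 3, and Gata3 is lowest in T-N replicate 2, at -5.48.

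Compared per kilobase of exon, which allows levels of different genes to be set side by side, the order of the 10 genes differed between the groups. Gata3 had the highest mean in MG-WT (2065 normalized counts per kb), followed by Ehf (1864), Sox10 (1666), Sox9 (1497) and Foxa1 (1231), and Spdef had the lowest (131). Ehf was first in all 4 MG-N, all 4 MG-NP and all 4 T-NP samples, with means of 692, 703 and 4364. In T-N, Ehf (2959.7), Sox10 (2251) and Tfap2c (2134) shared the first 3 places, in an order that changed between tumors. Foxa1 was last in all 8 tumors (7.53 and 9.9), and Spdef, last in all 11 glands, took places 5 to 8 in the tumors (335 and 587). Neighbors in this order, such as Sox10 and Tfap2c in tumors or Grhl2 and Elf3 in MG-N, exchanged places between samples of a group and were not told apart.

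Within the set, Sox10 and Tfap2c had the most alike profiles over the 19 samples (root-mean-square difference of centered log2 values 0.36), then Elf5 and Grhl2 (0.464) and Ehf and Elf5 (0.494). Foxa1 was the furthest from all others, up to 4.88 from Spdef. Ehf and Elf5 lie on chromosome 2, 108 kb apart and on opposite strands. The genes most like each member were also listed. Cldn3, a claudin of tight junctions, was nearest to Sox10 (0.25), Rab25, an epithelial trafficking GTPase, to Tfap2c (0.27), and the adaptor gene Ap1m2 to Ehf (0.31). Among the 3 genes most like Grhl2 was Cdh1, which encodes E-cadherin (0.26). The gene nearest to Sox9 was Tfap2a (0.42), the AP-2 alpha relative of Tfap2c. For Elf5 it was 2010300C02Rik (0.29), for Elf3 the chemokine gene Cx3cl1 (0.49), for Spdef Stac2 (0.62) and Col9a2 (0.65), and for Gata3 Ccdc92 (0.54).

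Of the members, 3 share their position with other annotated genes, and whether counting used strand is not given in the sources used here. 4930412O13Rik overlaps Gata3 on the other strand, was second in likeness to it (0.59) and held at most 348 counts in MG-WT and 346 in T-NP. The antisense gene Gm16136 within Grhl2 had 505 to 857 counts in T-N and 215 to 327 in MG-WT. How reads over both partners were assigned was not tested, so the values of Gata3 and Grhl2 carry that uncertainty. Gm26642, antisense to Elf3, had at most 9.48 counts.

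Other regulators of the mammary lineages gave a mixed picture. Of 30 such genes, 29 were tested in T-N against MG-N, 11 were called higher and 7 lower, and of 30 tested in T-NP against MG-NP, 13 were higher and 8 lower (median 0.09 and 0.30, against all-gene medians of -0.05 and -0.07). Over all genes tested, 12.8% and 14.7% were called higher and 22.3% and 24% lower. The largest changes were falls of Pgr, the progesterone receptor (-5.76 ± 1.30), Tbx3, a T-box factor of hormone-sensing cells (-4.57 ± 0.39), and Bcl11b (-4.41 ± 0.72) in T-N, and of Tbx3 (-4.50 ± 0.34), Bcl11b (-4.12 ± 0.97) and Cited1 (-4.07 ± 0.54) in T-NP. Against MG-WT, 19 of the 30 fell and 1 rose in MG-N, and 20 of 29 fell and none rose in MG-NP, Tfap2a (-4.28 ± 0.26 and -4.00 ± 0.39) and Tfap2b (-3.84 ± 0.55 and -3.93 ± 0.23) being among the largest falls in both. Among all genes tested, 17.9% and 16.2% were called lower in MG-N and MG-NP.

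The hormone-sensing genes, the program in which Foxa1 and Gata3 act, were lower in tumors. Of 12 genes, 9 were called lower and 0 higher in T-N against MG-N, 8 lower and 1 higher (Prom1) in T-NP against MG-NP, and 11 lower and 0 higher in each tumor group against MG-WT. The shares of all genes tested called lower were 22.3% and 24% against the glands, and 25% (T-N) and 28% (T-NP) against MG-WT. Calca (-7.13 ± 1.54 and -5.40 ± 1.69) and Tnfsf11, which encodes RANKL (-5.29 ± 0.95 and -4.35 ± 1.05), were among the 3 largest in both tumor groups. Neither passed the filter in T-NP against T-N, so both needed their gland values to enter these tests, and their fold changes rest on low tumor counts. Of the 12 genes, 7 in T-N and 6 in T-NP had at least 10 normalized counts in every tumor of the group. Of the 12 genes, 7 were called lower and 1 higher in MG-N against MG-WT, and 7 lower and 0 higher in MG-NP. There 17.9% and 16.2% of all genes tested were called lower. The median over the list was -3.65 and -3.34 in tumors against glands.

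No gene of the alveolar and luminal progenitor lists was called lower in tumors than in glands of tumor-bearing mice. Over all genes tested in T-N and T-NP against the glands, 12.8% and 14.7% were called higher and 22.3% and 24% lower. Of the milk genes, 1 of 9 tested was called higher in T-N (Csn3, 5.54 ± 1.03) and 4 of 10 in T-NP, led by Lalba (6.24 ± 0.85) and Csn3 (5.67 ± 0.50), and none lower. Of 8 luminal progenitor genes, 5 in T-N and 4 in T-NP were called higher and none lower, with Tspan8 (4.62 ± 0.63 and 3.75 ± 0.50), Cxcl1 (2.83 ± 0.70 and 3.10 ± 0.49) and Kit (1.82 ± 0.37 and 2.26 ± 0.30) changing most. Against MG-WT, 1 progenitor gene was called higher and 4 lower in each tumor group, and 4 of 9 milk genes were called higher in T-N and 8 of 10 in T-NP, with 1 lower in each. There 17.4% and 19.8% of all genes tested were called higher and 25% and 28% lower. All 10 basal and myoepithelial genes were called lower in T-N against MG-N and 9 of 10 in T-NP against MG-NP, with Krt5, a basal keratin, at -6.91 ± 0.64 and -6.49 ± 0.45.

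Sox9 is known for driving cartilage matrix genes, and that list was also measured. Of its 9 tested genes 6 were called higher in T-N against MG-N and none lower, and of 10 tested in T-NP 8 were higher and 1 lower (Sox6), the changes being led by Col9a1 (7.29 ± 1.19 and 6.59 ± 0.72), Col11a1 (6.73 ± 0.87 and 6.74 ± 0.67) and Comp (6.40 ± 0.99 and 6.21 ± 0.85). Over all genes tested, 12.8% and 14.7% were called higher in these comparisons. The list summed to 56553 to 134603 in T-N and 67006 to 109010 in T-NP, and to at most 10451 in any gland. Of the 5 chondrocyte markers, Hapln1, Acan and Matn1 had at most 3 reads in any tumor. The others, Col2a1 (2.87 ± 0.32) and Snorc (3.98 ± 0.56), were called higher in T-NP against MG-NP. They had 20.2 to 36.4 and 12.3 to 40.3 counts in T-NP and 3.41 to 99.2 and 0 to 46.7 in T-N. Both had at most 3 reads in any MG-NP gland and entered that test through the T-NP tumors, where they are high. Their calls, which are among the 8 counted above, thus follow largely from the filter. Neither was called against MG-WT. Sox9 itself was below its MG-WT level in these tumors. Of the 11 cartilage genes tested against MG-WT, 5 were called higher in each tumor group and none lower. The share of all genes tested that was called higher was 17.4% in T-N and 19.8% in T-NP. Whether Sox9 bears on the level of these genes was not tested.

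Relatives of the members in the ETS and SOX families moved both ways. In T-N against MG-N, 4 of 17 were called higher and 7 lower, and in T-NP against MG-NP 5 were higher and 8 lower. The shares over all genes tested were 12.8% and 14.7% higher and 22.3% and 24% lower. Etv5 (3.65 ± 0.34 and 4.18 ± 0.24) and Etv4 (2.89 ± 0.52 and 4.0 ± 0.41), ETS factors known as targets of growth factor signaling, rose in both, and Sox17, a factor of vessel endothelium, fell (-3.43 ± 0.32 and -3.08 ± 0.26). Markers of 2 other epithelia with some of these factors were also checked. The 8 skin and hair follicle markers summed to at most 90.9 counts in any tumor. The 8 salivary and lacrimal markers summed to 22952 to 73723 in T-N and 23047 to 51071 in T-NP. Of these, the defining genes Muc19 and Smgc were at 0 reads in all tumors. Aqp5 (5.31 ± 0.60 and 5.67 ± 0.48) and Scgb2b27 (6.47 ± 2.21 and 8.49 ± 1.17) were called higher than in the glands. Amy1 was called lower than in the glands in both (-7.69 ± 0.86 and -6.51 ± 0.40).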

How the data were processed

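Total RNA of 19 glands and tumors was sequenced on the Illumina platform. The labels name a stranded total RNA kit and the methods an mRNA kit, and the counting tool, its strand setting and the annotation are not given in the sources used here. Reads were aligned to GRCm38 with Bowtie2 and TopHat2 (version 2.1.1 in the submitters' processing notes). The deposited values are a signal, reads per gene that the authors divided by DESeq2 size factors. Each column is whole multiples of 1 smallest step, from which reads were recovered (tolerance 0.05 of a read), 20899152 to 62645459 per library. All values (100%) came out whole. On these reads edgeR called 6218 genes in T-N against MG-N and 7137 in MG-N against MG-WT, where limma called 6298 and 7037. Fewer reads leave a larger counting error, which bears on Foxa1 in tumors.

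Symbols were taken from GENCODE vM21 (45143 of 46078 identifiers matched). Groups followed the sample labels. Genes were tested where no fewer samples than the smaller group held had 10 or more normalized counts, with limma (R 4.3.3, limma 3.58.1, trended variance) on log2(value + 1), 2 groups per fit, with Benjamini-Hochberg adjustment over all genes tested. Called means an adjusted p under 0.05 and a 2-fold change. Alternatives were pseudocounts of 0.5 and 5, no filter or a mean of 50, TMM scaling, edgeR 4.0.16, DESeq2 1.42.0, no fold limit, all 5 groups in 1 fit, a replicate block, the pan-epithelial genes as reference, MG-NP replicates 2 and 4 left out, T-NP replicates 1 and 2 averaged, and each sample left out in turn. The scripts were tested on simulated data.

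The 10 genes, the gene lists and the tests were chosen with earlier results of these data known. Besides the 10 genes, the text names from each list the 3 called genes with the largest change in a comparison used, defining markers at the count floor of 3 reads, and genes among the 3 most like a member, 1 of which is not reported here. Sox6, Prom1, the overlapping genes and the milk genes Csn2 and Wap were named after their values were seen. Promoter windows are from RefSeq (GRCm38.p6). Sequences of the other 5 members and proteins were not used here.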

Additional observations from a re-analysis of the deposited data

Results flagged for a closer look

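In groups of 4, a sample stood out when, on log2 values, its gap to the nearest other sample exceeded Dixon's critical share of the group's range. This held for 4 of 44 groups tested, and chance gives about 1 in 20. MG-NP replicate 4 had 247.9 normalized counts of Sox9 against 536 to 621 in the other MG-NP glands. It had 327 of Grhl2 against 869.9 to 999. Its mean log2 value of the 12 pan-epithelial genes was 8.68 against 10.1 to 10.4, so the same gland was low in all 3. T-NP replicate 2 had a mean log2 pan-epithelial value of 12.7, above 12.5 in the other T-NP tumors, whose values lay very close together. Its members showed the highest Spdef (1979) and Ehf (28501) of the T-NP tumors. What set these samples apart was not tested.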

How the results depend on the processing

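Over the members in the 6 comparisons of tumors or glands with calls, and the members with the largest difference or an unadjusted p under 0.05 in the other comparisons, 1228 values were computed under alternatives. Of these, 1146 kept their direction and their side of the threshold, 50 lost a call, 11 gained one and 21 turned sign. Relative to the pan-epithelial genes the counts of members called lower were 4 in MG-N and 3 in MG-NP against MG-WT and 4 in T-NP against MG-NP, and 1 was called higher in T-N against MG-N, 1 in T-NP against MG-NP, 0 in T-N against MG-WT and 1 in T-NP against MG-WT. With edgeR 0 members were called lower in T-N against MG-N and 0 in T-NP against MG-NP. Without the fold limit 4 were called higher in T-NP against MG-WT, and with all 5 groups in 1 fit 1 was.

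The replicate numbers do not pair samples (correlations of deviations from -0.28 to 0.32 between same-numbered samples), so the replicate block is only an alternative. With the block, 1 member was called higher in T-N against MG-WT, and the other counts of members stayed within 1.5 times the main ones. With 1 sample left out at a time there were 0 to 2 members higher and 2 to 4 lower in T-N against MG-WT (0 higher without MG-WT replicate 2, 1 without T-N replicate 3 or 4), 9 to 10 lower in MG-N and 8 to 10 in MG-NP against MG-WT, 7 to 9 higher in T-N against MG-N, and 2 to 3 higher in T-NP against MG-WT.

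The values that turned sign did so mostly on the pan-epithelial reference, which moves all genes by construction. They were Elf5 (0.29) and Ehf (0.60) in MG-N and Elf5 (0.68) and Ehf (0.64) in MG-NP against MG-WT. In T-N against MG-N they were Gata3 (-1.61), Elf5 (-0.56), Ehf (-0.27), Elf3 (-0.85), Sox9 (-0.44) and Grhl2 (-0.32), and in T-NP against MG-NP Gata3 (-1.24), Elf5 (-0.70), Elf3 (-1.36), Sox9 (-1.24) and Grhl2 (-0.74). Elf5 against MG-WT, near 0 in any case, was -0.27 in T-N and -0.022 in T-NP on that scale, and in T-N also -0.13 with the block, and from -0.13 (without T-N replicate 4) to 0.20 (without MG-WT replicate 2) with 1 sample left out. Outside this tally, in the comparisons with no call, 7 of 10 members turned sign under at least 1 alternative in MG-NP against MG-N, 4 of 9 in T-NP against T-N and 7 of 10 in the interaction. The cause of the edgeR and single-sample losses was not tested. Depth limits Foxa1 in tumors, where 6 of 8 libraries held 5 reads or fewer.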

Other observations

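Within the ETS and SOX lists, Sox8, Etv4, Etv5 and Sox4 were called higher in both tumor groups against the glands, and Elf4, Ets1, Fli1, Erg, Sox7, Sox17 and Sox18, most of which mark blood or vessel cells, lower. Sox4 and the AP-2 gene Tfap2a stood among 11 other mammary regulators called higher in both, beside Cebpb, Grhl1, Id2, Klf5, Lmo4, Ovol1, Ovol2, Trps1 and Xbp1. These genes were named after their values were seen.

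Esr1, the estrogen receptor with which Foxa1 is known to act, had 2512, 3424 and 3598 normalized counts in MG-WT, 2700.2, 3720.3, 3435 and 2751 in MG-N, 1808, 3481, 1962 and 3444 in MG-NP, 239.7, 122, 854 and 326 in T-N and 178, 107, 174 and 428 in T-NP. T-N replicate 2, 1 of the 2 tumors with Foxa1 above 90 counts, had 122, and T-NP replicate 3, the other, had 174. Pgr, which the estrogen receptor is known to induce, stood at 286, 4.21, 12.1 and 1.17 in T-N and 22.4, 9.76, 514 and 271 in T-NP, against 8508, 3567 and 8943 in MG-WT. Krt17 was the 1 gene of the basal list called higher in T-NP than in T-N (2.41 ± 0.28, adjusted p = 0.043). That call was lost in edgeR, which called 0 genes in this comparison, and on the pan-epithelial reference (adjusted p = 0.097).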
